A study of Saccharomyces cerevisiae with 4 samples.

Results

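ZPS1 (YOL154W), YOR387C and YGL258W are 3 genes that budding yeast is known to switch on when zinc runs short, and they are described here across strains that live on a single Hsp70-Ssa chaperone. They were chosen by their array values, since the intensity of all 3 was highest where Ssa2 and lowest where Ssa4 was the sole Ssa protein. They are 3 of the 5794 features on the array. All 4 strains derive from G402, in which SSA1, SSA2, SSA3 and SSA4 are deleted, and each carries a LEU2 plasmid with either SSA1, SSA2, SSA3 or SSA4 behind the constitutive SSA2 promoter. The cells are called Ssa1, Ssa2, Ssa3 and Ssa4 cells here after the chaperone they express. All were [psi-], and the control was the Ssa1 cells, which therefore also lack the other Ssa proteins. RNA from several extractions was pooled for each strain and hybridized to 1 array, so a strain has 1 value for each gene, without an error and without a test, and the number of arrays limits the precision.

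Zap1 is the transcriptional activator through which yeast responds to zinc. It is active in zinc-deficient cells, where it binds zinc-responsive elements in promoters and raises the transcription of plasma membrane and vacuolar zinc transporters and of genes that help cells to live with little zinc. ZPS1 encodes a putative GPI-anchored cell surface protein that is also induced at alkaline pH. YOR387C and YGL258W encode similar proteins of unknown function, and both are known for strong induction under zinc depletion. In the gene annotation that accompanied the study, Zap1 is named for ZPS1, zinc depletion and the iron regulator Aft1 for YOR387C, and no regulator for YGL258W. The RefSeq R64 gene table calls YGL258W VEL1. By their systematic names, ZPS1 lies on the left arm and YOR387C on the right arm of chromosome XV, and YGL258W lies on the left arm of chromosome VII.

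The normalized intensity of ZPS1 was 2900 in Ssa1 cells, 6161 in Ssa2 cells, 1258 in Ssa3 cells and 615 in Ssa4 cells. It was highest in cells expressing Ssa2, intermediate in those expressing Ssa1 and Ssa3 and lowest in those expressing Ssa4. It stayed a bright feature throughout, above 76.1% of the features with a value on the Ssa4 array and above 98.4% on the Ssa2 array. Relative to Ssa1 its intensity was 2.12 times as high in Ssa2 cells, 2.31-fold lower in Ssa3 cells and 4.72-fold lower in Ssa4 cells. In bulk RNA, a lower level in every cell and fewer cells with the transcript cannot be told apart.

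The normalized intensity of YOR387C was 22.2 in Ssa1 cells, 65.6 in Ssa2 cells, 11.9 in Ssa3 cells and 5.67 in Ssa4 cells. The order of the strains was that of ZPS1, from Ssa2 through Ssa1 and Ssa3 down to Ssa4. Relative to Ssa1 this was 2.96 times as high in Ssa2 cells, 1.87-fold lower in Ssa3 cells and 3.91-fold lower in Ssa4 cells. Only the difference between Ssa3 and Ssa1 was short of 2-fold. This feature was dim, above 25.2% of the features on the Ssa2 array and above 4.17% on the Ssa4 array, where the lowest intensity of any feature was 0.927.

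The normalized intensity of YGL258W was 8.78 in Ssa1 cells, 18.5 in Ssa2 cells, 9.00 in Ssa3 cells and 3.30 in Ssa4 cells. Again Ssa2 was highest and Ssa4 lowest, but Ssa1 and Ssa3 were nearly equal. Its ratio to Ssa1 was 2.10 in Ssa2 cells and 1.02 in Ssa3 cells, and in Ssa4 cells it was 2.66-fold lower. It was the dimmest of the genes within its own array distribution, above 10.6% of the features on the Ssa2 array and above 1.92% on the Ssa4 array. YOR387C and YGL258W are similar genes, and the probe sequences were not analysed here, so how far transcripts of either gene bind the probe of the other was not tested.

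**Figure D1:**
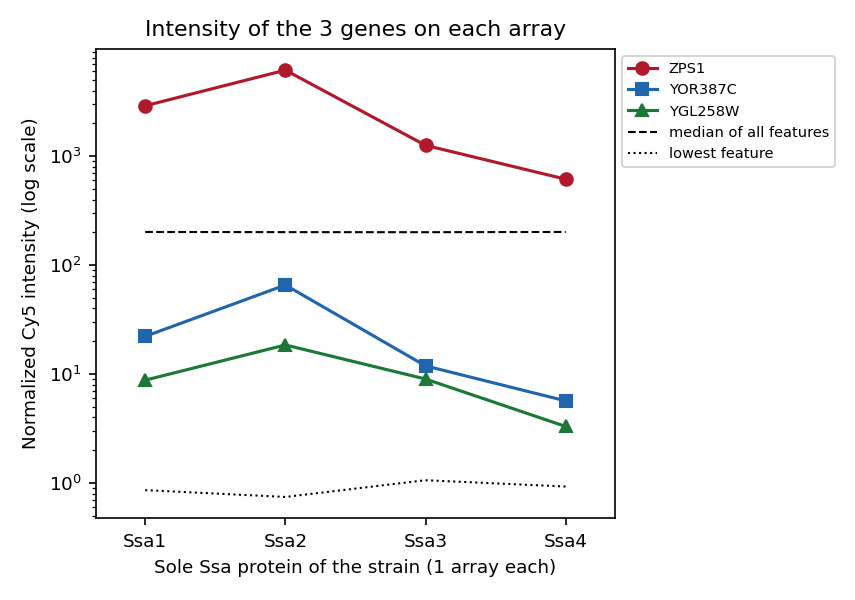
Normalized Cy5 intensity (vertical, log scale) of ZPS1, YOR387C and YGL258W on the arrays of the 4 strains (horizontal), 1 point per array and without error bars because no strain was repeated; the dashed line is the median and the dotted line the lowest of all features. Each gene is highest on the Ssa2 array and lowest on the Ssa4 array, and ZPS1 lies above the median on all 4 arrays while YOR387C and YGL258W lie below it.

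The threshold of the study was a 2-fold difference from the Ssa1 strain. All 3 genes were past it upwards in Ssa2 cells, where 1.35% of the features with a value on both arrays were. All 3 were past it downwards in Ssa4 cells, where 7.1% of all features were. In the Ssa3 strain ZPS1 alone of the 3 was past it downwards, as were 1.94% of all features. Ratios past 2-fold in the other direction were found for 2.4% of the features downwards in Ssa2 cells, 5.12% upwards in Ssa4 cells and 2.23% upwards in Ssa3 cells, and for none of the 3 genes. These counts were fixed by the choice of the genes and are given as a description. The 3 comparisons also share the Ssa1 array, so that a high or low intensity there would move all of them together.

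Among the 5782 features with a value on the Ssa1 and Ssa2 arrays, YOR387C had the 25th highest ratio of Ssa2 to Ssa1, ZPS1 the 65th and YGL258W the 68th. ZPS1 and YGL258W, with ratios of 2.12 and 2.10, thus lay close to the threshold. In the Ssa4 strain the order was different. ZPS1 had the 29th lowest ratio to Ssa1 of 5776 features, YOR387C the 48th lowest and YGL258W the 158th lowest. In the Ssa3 strain ZPS1 had the 54th lowest ratio of 5779 features and YOR387C the 162nd lowest, while YGL258W was in the middle of the distribution.

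Ratios between the strains other than Ssa1 do not use the Ssa1 array. The widest gap was that between Ssa4 and Ssa2. ZPS1 was 10.02-fold lower in Ssa4 than in Ssa2 cells, YOR387C 11.6-fold lower and YGL258W 5.60-fold lower. The folds of the latter 2, dim on the Ssa4 array, depended on the offset. Adding 10 to each intensity made them 4.83-fold and 2.14-fold, and adding 50 made them 2.08-fold and 1.28-fold, whereas ZPS1 was then 9.88-fold and 9.35-fold lower. The direction could not change, because the same amount was added on both arrays. The offsets thus bear only on the size, which was not stable for YOR387C and YGL258W. Without an offset, 3.79% of 5774 features were more than 2-fold lower, and YOR387C had the 3rd lowest ratio, ZPS1 the 5th lowest and YGL258W the 13th lowest. More than 5-fold lower in Ssa4 than in Ssa2 cells were 18 of the 5771 features with a value on all 4 arrays, or 0.312%. These 3 genes were among them, with the limit just below the 5.60-fold of YGL258W. The genes were chosen as highest in Ssa2 and lowest in Ssa4 cells, so these ranks and this share are a description.

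Between Ssa3 and Ssa2, ZPS1 was 4.90-fold, YOR387C 5.52-fold and YGL258W 2.05-fold lower in Ssa3 cells, with 2.51% of all features more than 2-fold lower. Between Ssa4 and Ssa3, ZPS1 was 2.05-fold, YOR387C 2.10-fold and YGL258W 2.73-fold lower in Ssa4 cells, where 6.65% of all features were more than 2-fold lower. For ZPS1 and YOR387C the step from Ssa2 to Ssa3 was therefore larger than that from Ssa3 to Ssa4, and for YGL258W it was smaller. Without repeated arrays no spread can be set beside these steps.

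**Figure D2:**
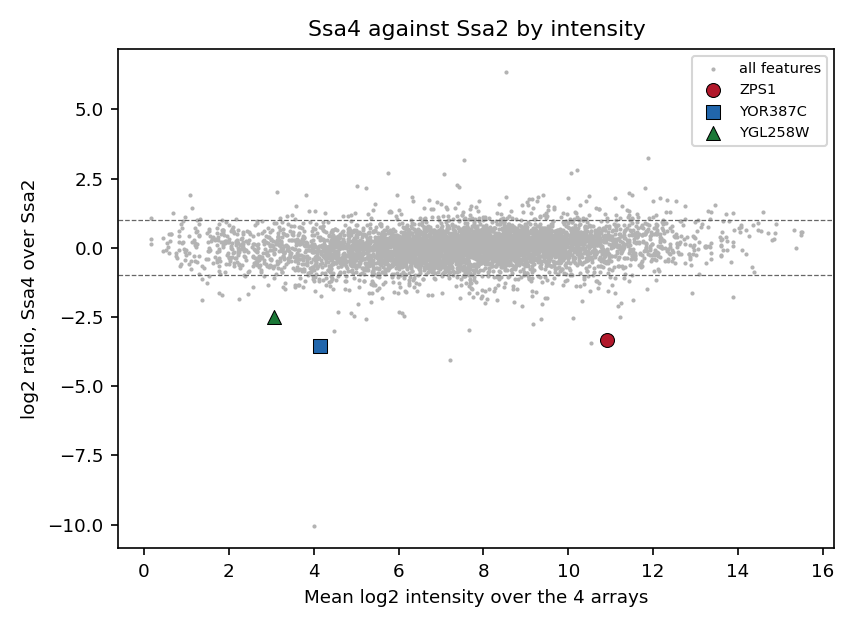
Log2 ratio of Ssa4 to Ssa2 (vertical) against the mean log2 intensity over the 4 arrays (horizontal) for all features with 4 values (grey) and the 3 genes (coloured), with dashed lines at 2-fold. ZPS1 at the bright end and YOR387C and YGL258W at the dim end lie below most of the grey points, at log2 ratios of -3.33, -3.53 and -2.49.

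Low ratios in Ssa4 cells were common among dim features. All features with 4 values were split into 10 groups of equal size by mean intensity. YOR387C and YGL258W fell in the lowest group, whose mean intensities ran from 1.12 to 19.0, and there 15.4% of 578 features were more than 2-fold lower in Ssa4 than in Ssa1 cells. Within that group 8 features, YOR387C included, had a ratio of Ssa4 to Ssa1 as low as that of YOR387C, and 36 had one as low as that of YGL258W. Upward ratios past 2-fold in Ssa2 cells were found for 1.38% of the group, and 4 features had one as high as YOR387C and 7 one as high as YGL258W. ZPS1 was in the highest group, where 4.85% of 577 features were more than 2-fold lower in Ssa4 cells and 6 had as low a ratio as ZPS1.

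Opposite directions in the Ssa2 and Ssa4 strains, both past 2-fold, were found for 4 of the 5771 features with 4 values, or 0.0693%. These were SSA2 and the genes chosen for such a pattern, ZPS1, YOR387C and YGL258W. For SSA2, which encodes the chaperone itself, the design sets the pattern, as only the plasmid of Ssa2 cells carries this gene. Its intensity was 2505 in Ssa2 cells against 9.01, 1.21 and 2.38 in Ssa1, Ssa3 and Ssa4 cells, which checks the label of the Ssa2 array. The reverse pattern, lower in Ssa2 and higher in Ssa4, was found for 1 feature. Without a threshold, 6.58% of the features had their highest intensity in Ssa2 cells and their lowest in Ssa4 cells, and 4.47% had the full order of ZPS1 and YOR387C.

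**Figure D3:**
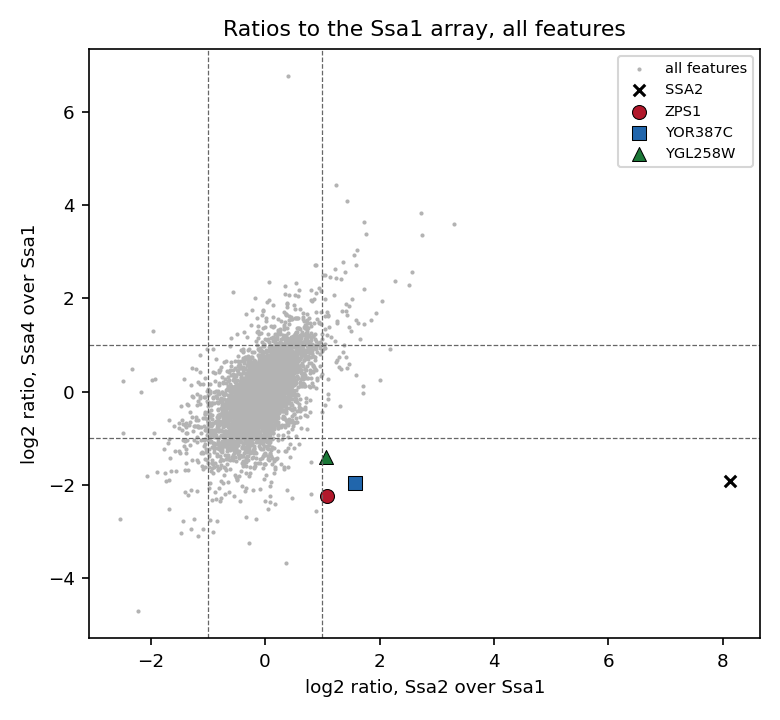
Log2 ratio of Ssa4 to Ssa1 (vertical) against that of Ssa2 to Ssa1 (horizontal) for all features (grey), with dashed lines at 2-fold. ZPS1, YOR387C and YGL258W are at the lower right with SSA2 (cross), apart from the cloud, which runs from the lower left to the upper right; both axes share the Ssa1 array.

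The values of the 3 genes were compared with those of spots that may lie beside them, on a layout of 32 blocks that no source used here gives. The layout was inferred from the names of the features and from correlations in the same values. Each gene had 6 such neighbours with a value. Around ZPS1 the neighbours had a median log2 ratio to Ssa1 of 0.11 in Ssa2 cells, -0.52 in Ssa3 cells and -0.16 in Ssa4 cells. All 6 were lower in Ssa3 than in Ssa1 cells, at log2 ratios from -1.15 to -0.24. With the neighbour median subtracted, ZPS1 was 1.96 times as high in Ssa2 and 1.61-fold lower in Ssa3, both short of 2-fold, and 4.22-fold lower in Ssa4.

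Around YOR387C the median log2 ratio of the neighbours was -0.13 in Ssa2 cells, 0.14 in Ssa3 cells and -0.33 in Ssa4 cells. After subtraction YOR387C was 3.24 times as high in Ssa2, 2.05-fold lower in Ssa3 and 3.11-fold lower in Ssa4. Around YGL258W the medians were -0.09, 0.12 and -0.38, and after subtraction it was 2.24 times as high in Ssa2, 1.06-fold lower in Ssa3 and 2.04-fold lower in Ssa4. The differences of YOR387C and YGL258W in Ssa2 cells were thus opposite in sign to the medians of their neighbours, and in Ssa4 cells they had the same sign. Single neighbours in Ssa4 cells had log2 ratios from -2.12 to 0.95 around YOR387C and from -1.46 to 1.13 around YGL258W. The ratio of Ssa4 to Ssa2 stayed past 2-fold for all 3 genes, at 9.79-fold, 10.1-fold and 4.47-fold lower for ZPS1, YOR387C and YGL258W.

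The profile most like that of the 3 genes was sought among all other features with 4 values, by the Euclidean distance of the 3 log2 ratios to Ssa1 from the mean of the 3 genes. YOR387C itself lay at a distance of 0.40 from this mean, ZPS1 at 0.65 and YGL258W at 0.88. The nearest other feature was YDL038C, at 0.63, which was thus nearer than ZPS1 and YGL258W. Its intensities from Ssa1 to Ssa4 were 33.6, 58.6, 16.8 and 7.31, and it was short of 2-fold upwards in Ssa2 cells with a ratio of 1.75. In the Ssa3 and Ssa4 strains its ratios were 0.499 and 0.218.

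The 4 named genes that followed were also the next 4 of all features. They were YOX1, a homeodomain repressor of the cell cycle, GAS1, a GPI-anchored enzyme that remodels cell wall glucan, MKC7, a GPI-anchored aspartyl protease, and SMF2, a divalent metal ion transporter. Their distances were 0.90, 0.95, 0.95 and 1.04. In Ssa4 cells their ratios to Ssa1 were 0.233 for YOX1, 0.328 for GAS1, 0.328 for MKC7 and 0.381 for SMF2, against 0.273 for the mean of the 3 genes. In Ssa3 cells they were 0.563, 0.805, 0.564 and 0.846, against 0.620. These genes were farthest from that mean in Ssa2 cells. There their ratios were between 1.26 for MKC7 and 1.36 for SMF2, against 2.37, and none was past 2-fold. With each profile centred on its own mean 3 of these 5 genes were again among the nearest 5 named features. With the Pearson correlation over the 4 arrays 2 were. Features without a name were left out of both of these comparisons.

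Of a list of 30 other genes of zinc transport, zinc homeostasis and the Zap1 response, 7 could be named on the array, since names were taken from the genes that the study listed as past 2-fold in some strain. The other 23, among them the transporter genes ZRT1, ZRT2 and ZRT3 and ZAP1 itself, were not analysed here. The named 7 were therefore bound to be past the threshold somewhere, or close to it, and their counts are no measure of how the list behaved. No gene of the list, named or not, could be more than 2-fold higher in Ssa2 cells and more than 2-fold lower in Ssa4 cells. Of the features with 4 values, only SSA2 and the 3 genes chosen for this contrast were. In the Ssa4 strain 4 of the 7 were more than 2-fold higher and 2 more than 2-fold lower. The shares of all features, 5.12% and 7.1%, are not a like measure, as naming depended on the threshold. Of the 926 features past 2-fold in at least 1 strain, 913 were named. Few features without a name were thus past it, and these features include any of the other 23 genes on the array.

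IZH1 and IZH2, membrane proteins of zinc homeostasis whose genes Zap1 regulates, differed in the opposite direction to the 3 genes in Ssa4 cells. The intensities of IZH1 from Ssa1 to Ssa4 were 697, 902, 1138 and 1525, lowest in Ssa1 and highest in Ssa4 cells, with a ratio of Ssa4 to Ssa1 of 2.19. IZH2 had intensities of 89.1, 86.2, 106 and 187, highest in Ssa4 cells with a ratio of 2.09. COM2, a transcription factor gene annotated as a Zap1 target, shared the higher level in Ssa2 with the 3 genes, with a ratio of 2.06, but in Ssa4 its ratio was 2.03.

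ADH1 encodes the main fermentative alcohol dehydrogenase, a zinc enzyme whose gene is known to be turned down in zinc-deficient cells. Its intensities from Ssa1 to Ssa4 were 7058, 2651, 7935 and 8514, and it was thus lowest where the 3 genes were highest. Whether ADH1 differed because of zinc was not tested. Its ratio to Ssa1 was 0.376 in Ssa2 cells, 1.12 in Ssa3 cells and 1.21 in Ssa4 cells. MET30, which encodes a ubiquitin ligase subunit, had ratios of 1.77, 2.00 and 2.04 in the Ssa2, Ssa3 and Ssa4 strains. RTC4 and the flocculin gene FLO11 were lower in Ssa4 cells, with ratios of 0.481 and 0.490, and their ratios in Ssa2 cells were 1.01 and 0.833. With the neighbour median subtracted, the ratios of MET30 and FLO11 in Ssa4 cells were 1.37 and 0.534, both short of 2-fold.

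YOR387C is annotated as a target of the iron regulator Aft1, and 5 of 16 genes of the iron regulon could be named. All 5 were more than 2-fold higher in Ssa2 than in Ssa1 cells, as were YOR387C and 1.35% of all features, but genes could be named only if past 2-fold in some strain. The ratios were 2.48 for FET3, the ferroxidase of high-affinity iron uptake, 2.40 and 2.66 for the siderophore transporter genes ARN1 and SIT1, 3.02 for the cell wall mannoprotein gene FIT3 and 3.26 for TIS11, which encodes an mRNA-binding protein. The neighbouring spots of FET3 had a median log2 ratio of 0.90 in Ssa2 cells, and with it subtracted the ratio of FET3 was 1.33.

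In the Ssa4 strain the iron genes differed from YOR387C. Their ratios to Ssa1 were 0.811 for FET3, 2.86 for ARN1, 1.68 for SIT1, 1.28 for FIT3 and 1.09 for TIS11, none below 0.5. With the neighbour median subtracted that of FET3 was 0.428. In the Ssa3 strain, where YOR387C had a ratio of 0.536, the ratios were 2.24 for FET3, 2.44 for ARN1, 1.85 for SIT1, 1.17 for FIT3 and 2.22 for TIS11. Subtraction of the neighbour median brought FET3 to 1.28 and TIS11 to 1.82 in Ssa3 cells, both short of 2-fold. As deposited, YOR387C was thus past 2-fold upwards in Ssa2 cells with these genes, and unlike them was past 2-fold downwards in Ssa4 cells.

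ZPS1 is also induced at alkaline pH, and of 9 genes of phosphate supply and alkaline pH 2 could be named, under the same limit. PHO89, a sodium and phosphate cotransporter that is induced by alkaline pH, had intensities from Ssa1 to Ssa4 of 1927, 1987, 1177 and 338. PHO5, the repressible acid phosphatase, had intensities of 497, 323, 216 and 111. Both were lowest in Ssa4 cells and second lowest in Ssa3 cells, like ZPS1, with ratios of Ssa4 to Ssa1 of 0.175 and 0.224 and of Ssa3 to Ssa1 of 0.611 and 0.435. Neither was higher in Ssa2 cells by 2-fold, where the ratios were 1.03 for PHO89 and 0.650 for PHO5. PHO89 nevertheless had the full order of ZPS1 and YOR387C, from Ssa2 through Ssa1 and Ssa3 to Ssa4, as had 4.47% of the features. Its ratio of Ssa4 to Ssa2 was 0.170, lower than the 0.179 of YGL258W, and that of PHO5 was 0.345.

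**Figure D4:**
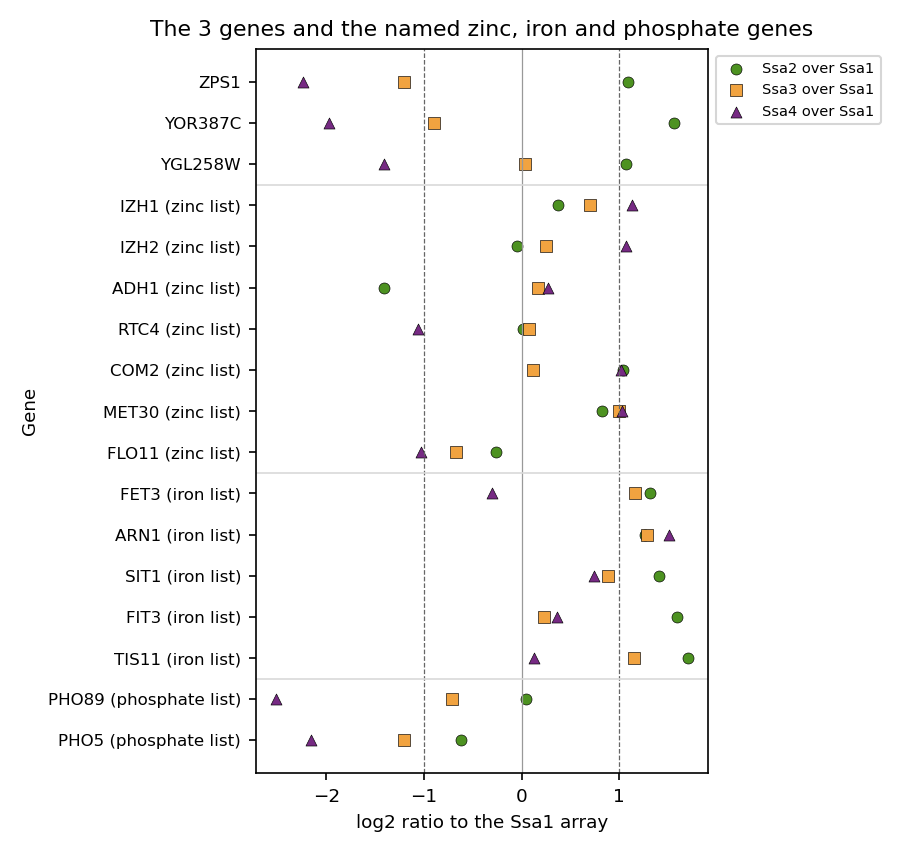
Log2 ratio to the Ssa1 array (horizontal) of ZPS1, YOR387C, YGL258W and the 14 named genes of the zinc, iron and phosphate lists (vertical), 1 point for each of the Ssa2, Ssa3 and Ssa4 strains, with dashed lines at 2-fold. The 3 genes have Ssa2 past the right line and Ssa4 past the left line, for which they were chosen. Of all features with 4 values only SSA2 shares this, so no gene of the lists could have both.

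Genes that lie next to the 3 genes in the RefSeq gene order were examined, with 5 protein-coding genes on each side. Beside ZPS1, 4 of 10 could be named, again only because the study listed them as past 2-fold in some strain. The named genes therefore do not stand for all neighbours. They were HPF1, a cell wall mannoprotein gene, HXT11, a hexose transporter gene, FRE7, a putative ferric reductase gene, and GRE2, a reductase gene, and their ratios of Ssa4 to Ssa1 were 3.11, 3.14, 0.638 and 6.53, against 0.212 for ZPS1. In Ssa2 cells their ratios to Ssa1 were 2.70 for HPF1, 2.15 for HXT11, 1.40 for FRE7 and 1.85 for GRE2, against 2.12 for ZPS1. In Ssa3 cells their ratios were 2.73, 1.65, 2.38 and 2.62, against 0.434 for ZPS1. Beside YOR387C, 2 of 10 could be named, FIT3 and the adjacent FDH1, which encodes formate dehydrogenase. FDH1 was lower in all 3 strains than in Ssa1, with ratios of 0.293 in Ssa2, 0.133 in Ssa3 and 0.424 in Ssa4, whereas YOR387C was higher in Ssa2.

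Beside YGL258W, 3 of 10 could be named. YGL262W and YPS5 had ratios of 0.331 and 0.638 in Ssa2 cells, where YGL258W had 2.10, and HXK2, a hexokinase gene, had 1.37. In the Ssa4 strain the ratios were 0.603, 0.392 and 0.849. The genes on the same side as HXK2 include MNT2, ADH4 and ZRT1, of which ADH4 and ZRT1 are known Zap1 targets. These 3 neighbours were not analysed here. No gene next to a member could be both more than 2-fold higher in Ssa2 and more than 2-fold lower in Ssa4. Of the features with 4 values, only SSA2 and the 3 genes were.

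How the ratios moved with the processing differed between the genes. The ratio of Ssa2 to Ssa1 ranged from 1.96 to 4.90 for ZPS1, from 1.60 to 5.52 for YOR387C and from 1.16 to 2.53 for YGL258W under 7 alternatives. For ZPS1 and YOR387C the highest came from the median of the other 3 arrays as reference in place of Ssa1. That median was the Ssa3 value for both genes, so these are the folds between Ssa2 and Ssa3 given above. For their ratios in Ssa4 cells it was the Ssa1 value, which left those ratios as deposited. For ZPS1 the ratio of Ssa4 to Ssa1 stayed between 4.22-fold and 5.68-fold lower under the same alternatives. For YOR387C it ranged from 1.30-fold to 3.91-fold lower and for YGL258W from 1.10-fold to 2.73-fold lower, and the smallest of these came from adding 50 to each intensity, which is more than the intensity of either gene on the Ssa1 array. With an offset of 10 YOR387C stayed past 2-fold in both directions, and YGL258W in neither.

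**Figure D5:**
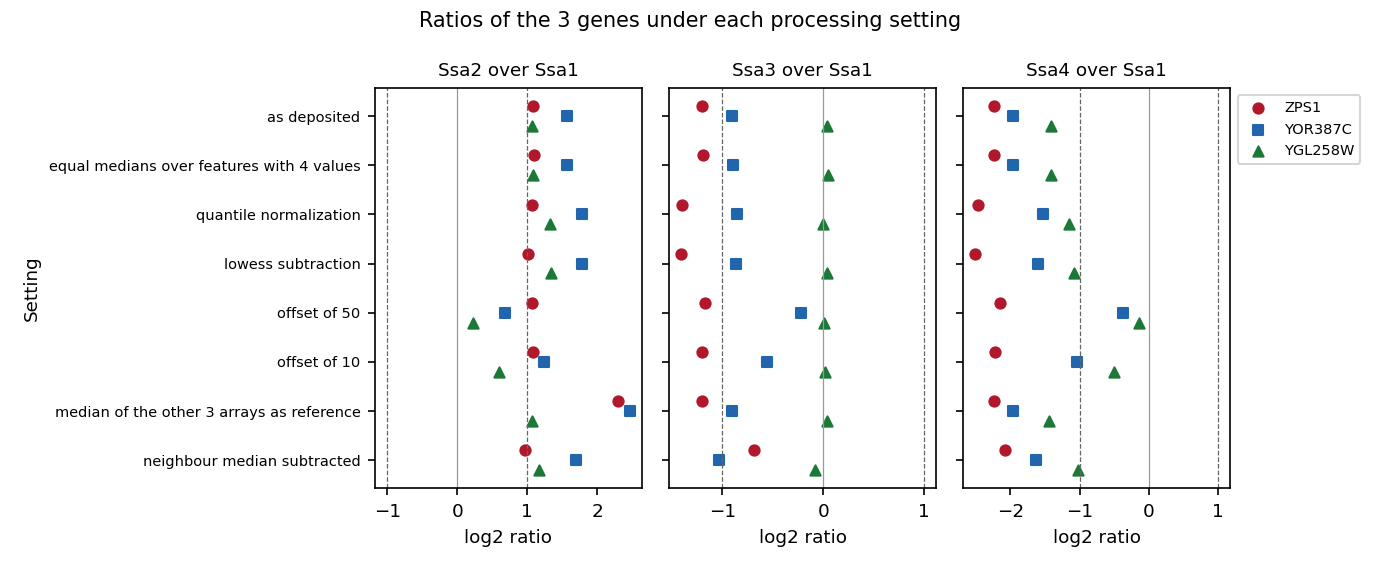
Log2 ratio to Ssa1 (horizontal) of ZPS1, YOR387C and YGL258W in the Ssa2, Ssa3 and Ssa4 strains (panels) as deposited and under each alternative (vertical), with dashed lines at 2-fold. ZPS1 hardly moves in the Ssa4 panel, whereas the offsets bring YOR387C and YGL258W towards 0 in the Ssa2 and Ssa4 panels.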

How the data were processed

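The deposited values are normalized intensities from 4 single-colour Cy5 arrays, 1 per strain. The authors took the median foreground of each spot, kept spots above the background given by blank spots, subtracted the mean background and scaled each array by its median. They were used as deposited, with array medians from 200.4 to 201.5 and 5776 to 5786 features with a value per array. Ratios were formed without an offset or filter, and no test was made with 1 array per strain. Features were named by matching all 4 intensities to the gene names that the study lists for genes past 2-fold. Each of 955 rows matched exactly 1 feature to a relative tolerance of 1e-05, which named 946 genes, or 16.3% of the features, of which 935 are in the RefSeq R64 table. The table was used for names and gene order only. The members and gene lists were chosen with earlier results of these data known. The genes named are the members, the 5 named features nearest to their mean profile, and the list genes and genome neighbours that could be named. SSA2 was added after its values were seen.

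Alternatives were equal medians over features with 4 values, quantile normalization, lowess subtraction (fraction 0.4), offsets of 10 and 50, a reference made of the other 3 arrays (their median), thresholds of 1.5-fold and 3-fold, a minimum of 100 on both arrays, and a correction for neighbouring spots, whose median log2 ratio was subtracted, taken 1, 14 and 15 positions away in the same block (at least 3 required). That layout rests on correlations in the same values. The counting was tested on simulated data with the same noise at all intensities and without the offsets, which does not cover the scatter of dim features. RT-qPCR measurements of the study were not used. Python 3.11.15, numpy 2.4.6, pandas 2.3.3, statsmodels 0.14.6 and matplotlib 3.10.9 were used.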

Additional observations from a re-analysis of the deposited data

Results flagged for a closer look

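All 3 genes had opposite differences from Ssa1 in different strains, more than 2-fold higher in Ssa2 and more than 2-fold lower in Ssa4. The ratio of Ssa4 to Ssa2 was 0.0998 for ZPS1, 0.0864 for YOR387C and 0.179 for YGL258W. With 1 array per strain this contrast was not tested, and the genes were picked for it.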

How the results depend on the processing

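Each strain has 1 array, so none was left out and the values are set against the 2-fold threshold only. No paired analysis was possible because each strain has a single array and no result comes from a test. No sequences were used, so the planned count of promoters with a Zap1 motif was not run. None of the ratios past 2-fold changed direction under any alternative. The offsets could not change it, since the same amount is added on both arrays. The median of the other 3 arrays could not change it in Ssa2 or Ssa4 cells either, as the 3 genes were highest in Ssa2 and lowest in Ssa4. For ZPS1 and YOR387C in Ssa4 cells that median was the Ssa1 value. The ratio of Ssa3 to Ssa1 for YGL258W, which is not past 2-fold, lay between 0.945 and 1.03.

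An offset of 50 brought the ratio of Ssa2 to Ssa1 to 1.60 for YOR387C and 1.16 for YGL258W, that of Ssa4 to Ssa1 to 0.771 and 0.907, that of Ssa3 to Ssa2 to 0.535 and 0.862, that of Ssa4 to Ssa3 to 0.900 and 0.903 (0.508 for ZPS1), and that of Ssa4 to Ssa2 to 0.481 and 0.778, against 0.0864 and 0.179 without it. An offset of 10 brought YGL258W to 1.52 for Ssa2 over Ssa1, 0.708 for Ssa4 over Ssa1, 0.667 for Ssa3 over Ssa2 and 0.700 for Ssa4 over Ssa3, and YOR387C to 0.207 for Ssa4 over Ssa2 and 0.716 for Ssa4 over Ssa3. The latter ratio was also short of 2-fold with quantile normalization (0.628) and lowess subtraction (0.602). With the median of the other 3 arrays as reference, which was the Ssa3 value for both genes, the ratio of Ssa2 was 4.90 for ZPS1 and 5.52 for YOR387C. Subtracting the neighbour median left ZPS1 at 1.96 in Ssa2 and 0.622 in Ssa3 against Ssa1, brought YOR387C to 0.488 in Ssa3, past 2-fold, and left Ssa4 over Ssa3 at 0.598 for YOR387C and 0.528 for YGL258W. Of the 3 genes higher in Ssa2, 1 was past 2-fold with an offset of 50, 1 with a minimum of 100 on both arrays, and 0 were past 3-fold. Of the 3 lower in Ssa4 than in Ssa1, 1 was past 2-fold with an offset of 50 and 1 with that minimum, which also left 1 of the 3 lower in Ssa4 than in Ssa2. In Ssa3, 0 genes were past 3-fold and 2 past 1.5-fold. Of the 5 genes nearest to the 3 in profile, 3 were shared with centred profiles and 2 with the Pearson correlation, both among named features only.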
